A study of Mus musculus with 4 samples.

Results

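The members are 10 mouse genes linked to cytokine signalling: the suppressors of cytokine signalling Cish, Socs1, Socs2, Socs3, Socs4, Socs5 and Socs6, and the serine/threonine kinases Pim1, Pim2 and Pim3. They were taken by name: every probe set of the array that the platform annotation gives as 1 of these symbols and no other was kept, which gave 26 probe sets for the 10 genes, out of 34958 probe sets with a single symbol. RNA was measured in 4 libraries of BA/F3 cells, and 14 of the 26 probe sets, from 8 genes, were bright enough to be tested.

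When interleukin 3 binds its receptor, JAK kinases phosphorylate STAT5, which enters the nucleus and switches on target genes. Among the textbook STAT5 targets are Cish, several Socs genes and Pim1, so their transcripts are often used as a readout of how active the pathway is. The SOCS proteins carry an SH2 domain, which recognises phosphotyrosine, and a SOCS box, which recruits an elongin and cullin ubiquitin ligase, and they shut the receptor complex down; the PIM kinases need no activating phosphorylation, so their activity follows their abundance, and they favour survival and protein synthesis. BA/F3 cells are a permanent mouse line that dies without interleukin 3 and serves as a stand-in for early B cells.

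Titles, source names and genotypes assign 2 libraries to BA/F3 cells with an inducible human ETV6-RUNX1 gene, the fusion transcription factor of a childhood B cell leukemia that is also called TEL-AML1, and 2 to BA/F3 cells without it. Cells of both groups were given mifepristone, which induces the transgene, at 32.5 pM for 16 h. The series design text calls the control an empty vector line; whether each line is 1 clone is not given in the sources used here. The description field contradicts the title for replicate 1: there ETV6-RUNX1 replicate 1 is described as control and control replicate 1 as TEL-AML1. For replicate 2 the fields name the same condition. Titles and design text also speak of promoter immunoprecipitation, but the protocols describe total RNA on a 3' expression array, so the values below are RNA levels. Libraries are named by title, and each contrast is given under both labels.

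Promoter sequence is shown for Cish and Socs3, the members whose windows held the STAT5 motif given below, and for Pim1. RefSeq (GRCm38.p6) windows from 250 bases before to 50 bases after a transcript start were used for 7 of the 10 genes, in 8 windows. Member windows on a single chromosome were filtered out, unlike in the share over all windows. Only a member on that chromosome may thus have a window that is not counted here. Each of the 8 windows was searched on both strands for the STAT5 motif TTCNNNGAA, where N is any base, and for the RUNX core TGTGGT. The motifs found did not overlap. Capitals mark the motif. The windows are chr9:107296409-107296708 (plus strand) for Cish, chr11:117969317-117969616 (minus strand) for Socs3, and, for the annotated Pim1 starts A and B, chr17:29490535-29490834 and chr17:29492835-29493134 (plus strand).
Cish: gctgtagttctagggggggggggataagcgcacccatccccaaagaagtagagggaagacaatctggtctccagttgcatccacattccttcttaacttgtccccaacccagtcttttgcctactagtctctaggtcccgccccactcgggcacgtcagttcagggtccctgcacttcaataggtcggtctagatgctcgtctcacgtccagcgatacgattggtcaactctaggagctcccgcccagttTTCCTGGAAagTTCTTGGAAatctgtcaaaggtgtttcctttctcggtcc
Socs3: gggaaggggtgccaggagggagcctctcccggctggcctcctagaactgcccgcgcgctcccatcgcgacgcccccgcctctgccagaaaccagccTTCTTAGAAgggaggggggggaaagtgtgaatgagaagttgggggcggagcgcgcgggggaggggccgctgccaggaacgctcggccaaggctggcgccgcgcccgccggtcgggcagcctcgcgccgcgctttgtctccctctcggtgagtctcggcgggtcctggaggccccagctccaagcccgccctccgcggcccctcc
Pim1 start A: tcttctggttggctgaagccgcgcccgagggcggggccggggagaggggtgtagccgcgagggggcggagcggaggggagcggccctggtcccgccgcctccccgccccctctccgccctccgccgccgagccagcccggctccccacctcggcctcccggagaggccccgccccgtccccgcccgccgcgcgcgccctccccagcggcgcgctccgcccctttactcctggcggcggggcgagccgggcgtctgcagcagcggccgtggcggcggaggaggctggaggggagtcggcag
Pim1 start B: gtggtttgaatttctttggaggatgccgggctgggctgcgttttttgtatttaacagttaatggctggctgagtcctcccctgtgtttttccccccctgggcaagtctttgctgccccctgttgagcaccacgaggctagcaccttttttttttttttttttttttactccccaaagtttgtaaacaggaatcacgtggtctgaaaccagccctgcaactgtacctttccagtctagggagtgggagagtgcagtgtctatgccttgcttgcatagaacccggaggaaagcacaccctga

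The Cish window holds 2 STAT5 motifs, from base 1 to 9 and from base 12 to 20 counted from the annotated start, and the Socs3 window holds 1, from base -154 to -146. Neither Pim1 window holds one, nor do those of Socs1, Socs4, Pim2 and Pim3. Of all 32851 windows in the table, 8.30% hold the STAT5 motif. The RUNX core occurs in 0 of the 8 member windows and in 16.8% of all windows. A match is a run of letters and not a measured binding site, and the absence of a match covers only these bases. The Pim1 windows differ in base composition, with 81.3% G and C at start A and 49.0% at start B.

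The deposited values are on a log2 scale that starts at 2.23, and 54.8% to 55.0% of the probe sets of each library lay within 0.5 of that lowest value. A reading near it is background, so a difference from it is compressed. Probe sets were tested when their mean over the 4 libraries was at least 4. Pearson correlations between libraries ran from 0.931 to 0.972 across the 17720 tested probe sets, and the closest pairs were those that the description field groups together. Of 10 named early B cell markers, 6 lay within 0.5 of the lowest value in all libraries, Pax5, Ebf1, Vpreb1, Rag1, Cd22 and Il7r, while Cd79b read 8.31 to 8.81. The summed linear signal of 10 mast cell and basophil markers was 6415 and 14393 in the libraries described as ETV6-RUNX1, against 6355 and 6889 in those described as control; Kit, Mcpt4 and Tpsb2 were near the lowest value throughout and Gata2, at 12.44 to 13.26, made up much of each sum. All 5 tested markers of that list were higher by description, with a median difference of 3.60, Gata2 only by 0.20 and with overlapping groups. Fcer1a read 7.69 and 9.91 against 2.32 and 2.37. It passed the filter only through the libraries described as ETV6-RUNX1, so it had to be higher there. Hdc read 7.84 and 8.16 against 3.70 and 5.09. The summed signal of 9 neutrophil and monocyte markers was 189 and 255, against 71.8 and 509. For 3 erythroid markers the sum was 77.4 and 122, against 196 and 469, with Klf1 at 5.52 and 5.93 against 7.39 and 8.80, Epor higher by 0.90 and Hba-a1 near the lowest value throughout. The 4 T cell and 4 fibroblast markers were near it in all libraries. The 3' minus 5' signal of the Gapdh control probe sets lay between -0.37 and -0.30 and that of the beta-actin controls between 0.63 and 0.70 in all 4 libraries. The part of other cell types' transcripts in the results below was not tested. Nothing in the labels says how replicate cultures were kept apart, so p-values measure only the spread between these libraries. With bulk RNA, fewer cells that make a transcript and less of it per cell cannot be told apart.

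**Figure D1:**
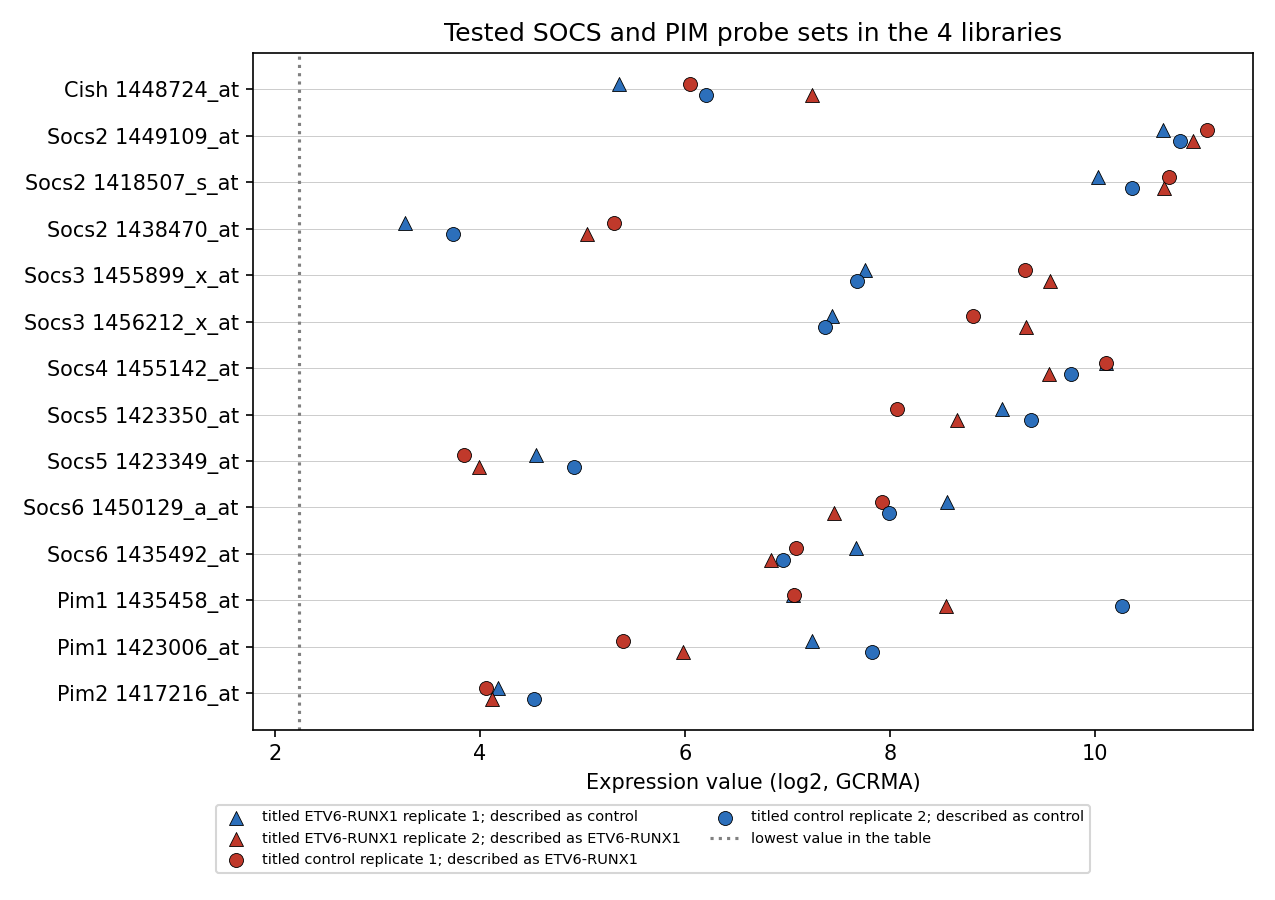
Expression value (log2, horizontal axis) of the 14 tested probe sets of SOCS and PIM genes in each library. Triangles are libraries titled ETV6-RUNX1 and circles are libraries titled control, red marks libraries described as ETV6-RUNX1 and blue those described as control, and the dotted line is the lowest value in the table. For Socs3 the red points read 8.81 to 9.56 and the blue points 7.36 to 7.75, while triangles and circles are mixed.

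Grouped by title, the fusion and control libraries did not separate at any tested member. Of the 14 probe sets 7 were higher and 7 lower in libraries titled ETV6-RUNX1, with differences between -0.86 for Pim1 and 0.30 for Socs3 and a median of -0.05, against -0.01 over all tested probe sets. None passed a limma adjusted p of 0.05, as was the case for 0% of all tested probe sets, and every member had an adjusted p of 1. At an unadjusted p under 0.05 there were 0 members, against 0.282% of all. Groups of 2 libraries failed to overlap at 0 members, against 10.7% of all, and 0 members differed at least 2-fold, against 0.920% of all. The spread within the titled groups was wide: for the brightest Socs3 probe set the 95% interval of the difference ran from -2.48 to 2.79. Leaving out 1 library turned the sign of the title difference at every member probe set except Socs2 1449109_at. With 2 libraries against 2, an exact permutation test of a single value cannot give a two-sided p below 0.333.

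Grouped by the description field, Socs3 and Socs2 read higher and Pim1 and Socs5 lower in the libraries called ETV6-RUNX1, but no member passed the test. Of the 14 probe sets 6 were higher and 8 lower, with a median of -0.19, against -0.01 over all. None had a limma adjusted p under 0.05, which 0.0113% of all tested probe sets had; the members' adjusted p-values ran from 0.12 to 0.87. At an unadjusted p under 0.05 there were 7 member probe sets, or 50%, against 19.7% of all, and they came from 4 genes, Socs2, Socs3, Socs5 and Pim1. The dim probe sets of Socs2 and Socs5 passed the filter only through the described group in which they were high. The groups did not overlap at 10 of the 14, 5 higher and 5 lower, against 50.4% of all, and 4 differed at least 2-fold, against 9.93% of all. With a mean of at least 4 required in both described groups, a filter chosen after seeing the data, 12 member probe sets were left. Of these, 5 had an unadjusted p under 0.05 (41.7%, against 19.2% of the 17256 probe sets then tested), 8 did not overlap (66.7%, against 8636 of the 17256) and 3 differed at least 2-fold (25%, against 8.86% of all). Probe sets of 1 gene are not independent of each other. Both groupings use the same 4 libraries, so one is no check of the other.

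**Figure D2:**
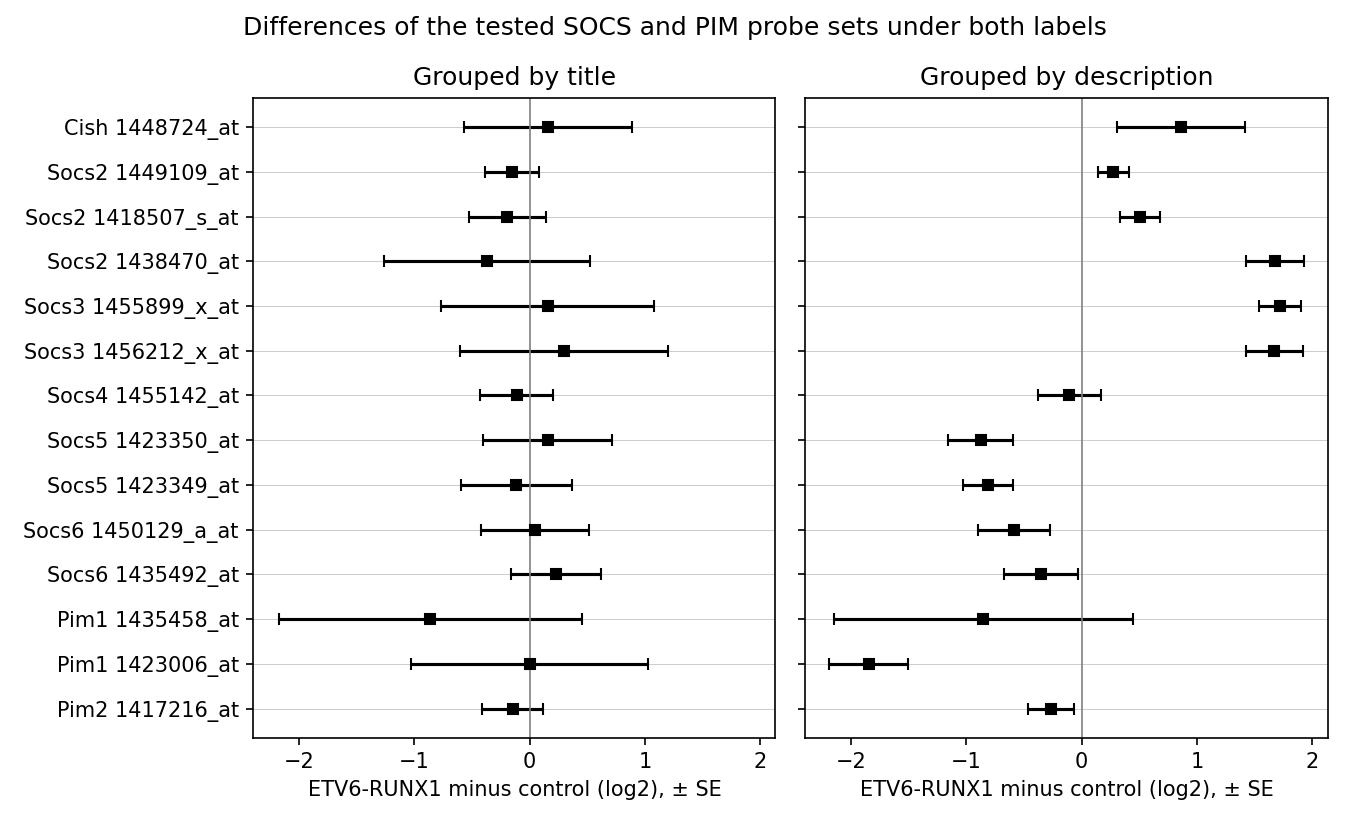
ETV6-RUNX1 minus control difference (log2, horizontal axis) of each tested SOCS and PIM probe set, grouped by title on the left and by the description field on the right. Squares are limma estimates from 2 libraries per group and bars are ± 1 standard error. By title every bar includes 0, and by description Socs3 lies at 1.72 and 1.67 and the dimmer Pim1 probe set at -1.85.

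Socs3, an inhibitor that blocks JAK kinases bound to a receptor, had the smallest p-value of the members by description. Its brightest probe set (1455899_x_at) read 7.75 and 9.56 in the libraries titled ETV6-RUNX1, replicates 1 and 2, against 9.32 and 7.68 in those titled control. The high values thus sat in 1 library of each titled group, the ones that share a description. By description it averaged 9.44 ± 0.17 in ETV6-RUNX1 libraries and 7.72 ± 0.05 in control libraries (SD, n = 2 each), a difference of 1.72 (SE 0.18, limma adjusted p = 0.12), or 3.30-fold. By title the difference was 0.16 (SE 0.92). The second probe set (1456212_x_at) read 7.44 and 9.33, against 8.81 and 7.36, and differed by 1.67 (SE 0.25, adjusted p = 0.14) by description and by 0.30 (SE 0.90) by title. By title the sign at both turned without ETV6-RUNX1 replicate 2, to -0.75 and -0.65, and without control replicate 2, to -0.66 and -0.43. The suffix _x_at marks probe sets whose probes may also bind other transcripts. The third Socs3 probe set (1416576_at), without that suffix, lay below the filter, at 4.26 in ETV6-RUNX1 replicate 2 and at 2.68 in the other 3 libraries, so it did not separate the libraries by description.

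Socs2, best known in mice as a brake on growth hormone signalling and also a STAT5 target, was bright in every library. Its brightest probe set (1449109_at) read 10.66 and 10.95 in the libraries titled ETV6-RUNX1, against 11.09 and 10.83 in those titled control, and the next (1418507_s_at) read 10.03 and 10.67, against 10.72 and 10.36. By description these averaged 11.02 ± 0.10 against 10.75 ± 0.12 and 10.70 ± 0.04 against 10.19 ± 0.24 (ETV6-RUNX1 against control, SD, n = 2 each), with no overlap. Their description differences were 0.28 (SE 0.14, adjusted p = 0.36) and 0.50 (SE 0.17, adjusted p = 0.24), and by title they were -0.15 (SE 0.23) and -0.19 (SE 0.33). A dim probe set (1438470_at) read 3.27 and 5.05, against 5.31 and 3.74 by title, a description difference of 1.68. It passed the filter through the libraries described as ETV6-RUNX1 alone, so it had to differ in that direction and no test is given for it. Another Socs2 probe set, 1446085_at, lay below the filter and read 3.60 and 3.59, against 2.80 and 3.89 by title. By description 1446085_at went the other way, averaging 3.19 in ETV6-RUNX1 libraries and 3.74 in control libraries. Without ETV6-RUNX1 replicate 1 the title difference turned to 0.13 for 1418507_s_at and to 0.52 for 1438470_at, and that of 1438470_at was 0.42 without control replicate 1.

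Cish, the founding member of the family, which binds activated receptors of the interleukin 3 and erythropoietin type, was measured by 1 probe set. It read 5.35 and 7.24 in the libraries titled ETV6-RUNX1, against 6.05 and 6.21 in those titled control. Its highest and lowest values lay in the same titled group, and the groups overlapped under both labels. The difference was 0.16 (SE 0.73) by title and 0.86 (SE 0.56, adjusted p = 0.47) by description, with a 95% interval by description of -0.72 to 2.45. Without ETV6-RUNX1 replicate 2 the title difference was -0.78. The replicate number held 57.4% of its variance and the description 41.1%. Cish and Socs3, which both carry a STAT5 motif in the windows above, thus differed in how their 4 values were ordered.

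Socs5, a family member with a long N-terminal region that has been linked to epidermal growth factor receptor turnover, pointed the other way. Its bright probe set (1423350_at) read 9.09 and 8.66 in the libraries titled ETV6-RUNX1, against 8.06 and 9.37 in those titled control. By description it averaged 8.36 ± 0.42 in ETV6-RUNX1 libraries and 9.23 ± 0.20 in control libraries (SD, n = 2 each), a difference of -0.87 (SE 0.28, adjusted p = 0.23), and by title it differed by 0.16 (SE 0.56). The dim probe set (1423349_at) read 4.55 and 3.99, against 3.85 and 4.92, a difference of -0.81 by description and of -0.11 (SE 0.48) by title. It passed the filter through the libraries described as control alone, so its description difference is given without a test. Without control replicate 1 the title difference of the bright probe set was -0.50, and without control replicate 2 that of the dim one was 0.42.

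Among the tested members Socs4 had the smallest difference by description, and Socs6 had its extremes within 1 titled group. Socs4, a close relative of Socs5, read 10.10 and 9.55 in the libraries titled ETV6-RUNX1, against 10.11 and 9.77 in those titled control at its tested probe set, so that both replicate 1 libraries lay above both replicate 2 libraries. Its difference was -0.11 (SE 0.32) by title and -0.11 (SE 0.27, adjusted p = 0.87) by description. By description its sign turned without ETV6-RUNX1 replicate 1, to 0.06, and without ETV6-RUNX1 replicate 2, to 0.17. Socs6, reported to bind insulin receptor substrate proteins and KIT, read 8.55 and 7.45, against 7.92 and 7.99, at its brighter probe set (1450129_a_at) and 7.66 and 6.84, against 7.08 and 6.96, at the other (1435492_at). The highest value at both was in ETV6-RUNX1 replicate 1 and the lowest in ETV6-RUNX1 replicate 2. The description differences were -0.58 (SE 0.31, adjusted p = 0.40) and -0.35 (SE 0.32, adjusted p = 0.60), and without ETV6-RUNX1 replicate 1 that of the second was 0.000571.

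Socs1, a direct JAK inhibitor induced by interferons and by many cytokines, was at the lowest value of the table in all 4 libraries at its single probe set. No level can be given for it, and a transcript below the reach of this probe set is not shown to be absent. Of the 12 probe sets that were not tested, 7 lay within 0.5 of the lowest value in every library, and 3 of these, for Socs1, Socs2 and Pim3, were exactly at it throughout. The other untested readings lay between 2.39 and 4.26. The filter fell between a Pim2 probe set, with a mean of 4.22, and a Socs4 probe set (1421275_s_at), with a mean of 3.53.

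Pim1, the kinase first found as a retroviral integration site in mouse lymphoma, had the widest range of the members, and its probe sets disagreed. The brighter (1435458_at) read 7.05 and 8.55 in the libraries titled ETV6-RUNX1, against 7.06 and 10.26 in those titled control, a span of 9.21-fold. Both replicate 2 libraries were above both replicate 1 libraries, and 78.9% of the variance lay between the replicate numbers. Its difference was -0.86 (SE 1.31) by title and -0.85 (SE 1.29, adjusted p = 0.76) by description, and without control replicate 2 these became 0.74 and 0.75.

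The dimmer Pim1 probe set (1423006_at) instead followed the description. It read 7.24 and 5.98 in the libraries titled ETV6-RUNX1, against 5.39 and 7.82 in those titled control. By description it averaged 5.69 ± 0.41 in ETV6-RUNX1 libraries and 7.53 ± 0.41 in control libraries (SD, n = 2 each), a difference of -1.85 (SE 0.34, adjusted p = 0.15), or 3.60-fold lower, with 91.0% of the variance along the description. By title the difference was 0.00 (SE 1.03), and it was -0.63 without ETV6-RUNX1 replicate 1 and -1.21 without control replicate 1. Which of the 2 annotated Pim1 starts shown above the probe sets follow was not tested.

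Pim2, a kinase with overlapping substrates whose gene lies on the X chromosome, read 4.18 and 4.12 in the libraries titled ETV6-RUNX1, against 4.06 and 4.53 in those titled control. These are readings just above the filter. The difference was -0.15 (SE 0.26) by title and -0.26 (SE 0.20, adjusted p = 0.53) by description, where the groups did not overlap by a margin of hundredths of a log2 unit. Pim3, the remaining kinase of the family, read 2.23 to 2.67 at its 3 probe sets in all libraries and had no measurable level.

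Only in replicate 2 do title and description name the same conditions, and with 1 library each their difference has no replicate check. In that pair Socs3 was higher in the ETV6-RUNX1 library by 1.88 and 1.97, the dim Socs2 probe set by 1.31 and Cish by 1.03, while Pim1 differed by -1.71 and -1.84. These 6 probe sets were the members that differed at least 2-fold, 6 of 14, against 11.4% of all tested probe sets. Within the replicate 1 pair, taken by title, 5 of 14 differed at least 2-fold, against 13.0% of all. There Socs3 differed by -1.56 and -1.37 and Socs2 by -2.04 at the dim probe set, while Socs5 differed by 1.03 and Pim1 by 1.85 at 1 probe set each. The counts of both pairs include the dim Socs2 probe set. It passed the filter only through the libraries described as ETV6-RUNX1, so the filter favoured its direction and it carries no weight in them. At 12 of the 14 probe sets the titled difference had opposite signs in the replicates; Socs4 and the brighter Pim1 probe set were the exceptions, with replicate 1 differences of -0.01 each.

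**Figure D3:**
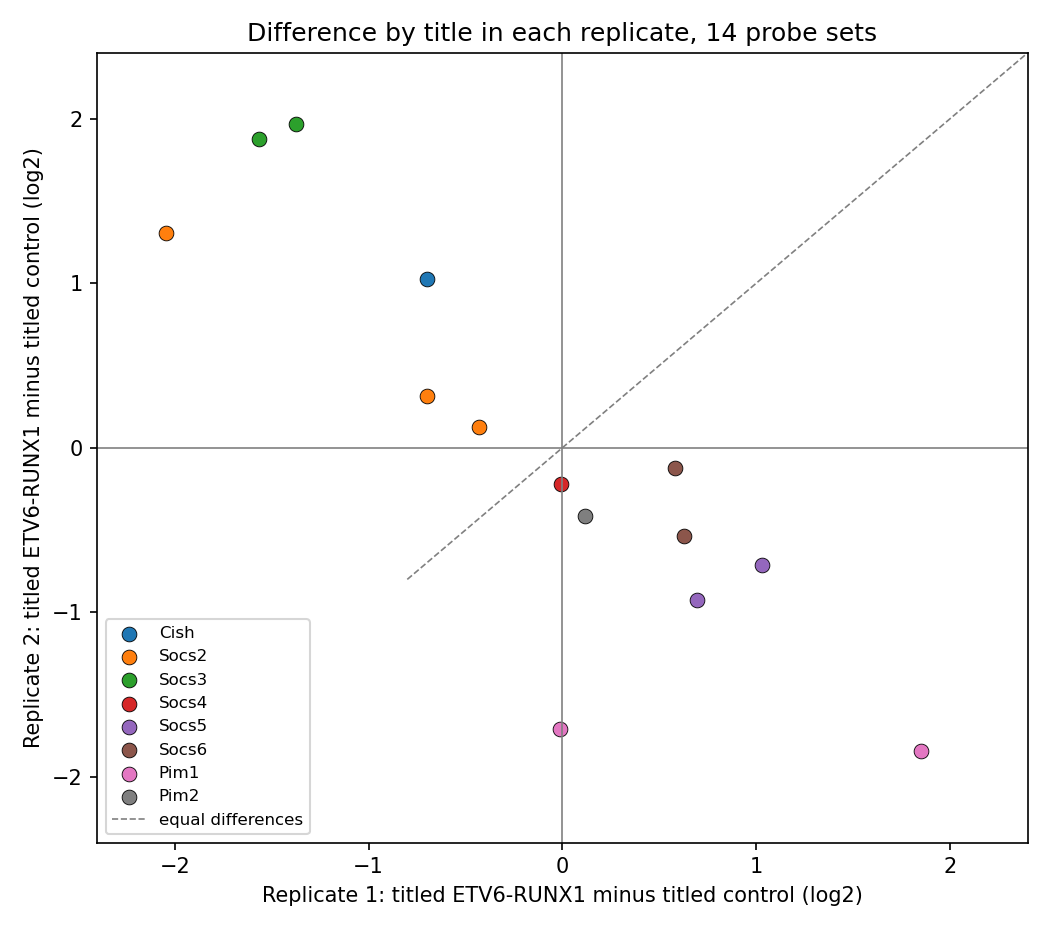
Titled ETV6-RUNX1 minus titled control difference (log2) in replicate 1 (horizontal axis) and in replicate 2 (vertical axis) for the 14 tested probe sets, 1 point each, coloured by gene. Points on the dashed line would have equal differences in both replicates. Socs3, Socs2 and Cish lie at the upper left, Socs5, Socs6, Pim2 and the dimmer Pim1 probe set at the lower right.

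When the variance of the 14 probe sets was pooled and split by label, the description held 63.2%, the replicate number 31.9% and the title 4.83%. Over all tested probe sets these shares were 53.9%, 36.5% and 9.61%. The description took the largest share at 10 member probe sets, against 52.4% of all tested probe sets, and the replicate number at the other 4, which belong to Cish, Socs4, Socs6 and Pim1. The title took the largest share at 0 members, against 13.5% of all. The dim Socs2 and Socs5 probe sets are among the 10 and in the pooled shares. They passed the filter only through the described group in which they were high, so the filter favoured their description share.

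The upstream part of the pathway was described with a list of receptor, JAK and STAT genes, 11 of whose 12 names matched a probe set and 10 of which were tested. Of these 10, 0 passed the adjusted threshold in either direction under either label. By description all 10 were higher in ETV6-RUNX1 libraries, with a median of 0.44. Over the 8892 tested genes the median was 0.01 and 51.5% were higher. By title 2 were higher and 8 lower, with a median of -0.26, against -0.02 and 46.2% higher over all. The summed linear signal of the list was 54020 in control replicate 1, against 34241 to 36851 in the other libraries. In the replicate 2 pair Il3ra, Csf2rb2 and Stat6 were lower in the ETV6-RUNX1 library, at -0.09, -0.11 and -0.11. The rest of the tested genes were higher there. Csf2rb, the shared signalling chain of the interleukin 3 receptor, read 14.08 and 14.26 in the libraries titled ETV6-RUNX1, against 14.78 and 14.12 in those titled control, and its differences were -0.28 (SE 0.26) by title and 0.42 (SE 0.20) by description. The ligand-binding chain gene Il3ra differed by -0.27 (SE 0.30) by title and 0.18 (SE 0.28) by description, and Csf2rb2, a mouse paralogue of Csf2rb, by -0.27 (SE 0.20) and 0.16 (SE 0.21). Jak2, the kinase bound to that chain, differed by -0.29 (SE 0.48) and 0.83 (SE 0.21), and was the 1 gene of the 10 with an unadjusted p under 0.05 by description (adjusted p = 0.19), a share below the 23.3% of all tested genes.

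The STAT5 genes differed in which label their values followed. Stat5a read 4.16 and 7.87 in the libraries titled ETV6-RUNX1, against 4.85 and 6.79 in those titled control, so both replicate 2 libraries were higher. Its differences were 0.20 (SE 1.55) by title and 0.89 (SE 1.46) by description. Stat5b read 7.41 and 8.59, against 8.56 and 8.24, and did not overlap by description. Its differences were -0.40 (SE 0.50) by title and 0.74 (SE 0.34, adjusted p = 0.34) by description.

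Other STAT5 targets did not move as 1 block. Of 14 listed, 10 were tested and 0 passed; by description 5 were higher and 5 lower with a median of 0.23, and by title 7 were higher and 3 lower with a median of 0.27. At an unadjusted p under 0.05 there were 4 of the 10 by description, against 23.3% of all tested genes, and 1 by title, against 0.225%. The 4 were Bcl6, Myc, Ccnd3 and Spred2. For Bcl6 the filter fixed the direction, so its p-value carries no weight in that share. Bcl6 is also 1 of the 5 counted as higher by description, so that count and the median by description were raised by the filter. Bcl6, a transcriptional repressor, read 2.64 and 7.39 in the libraries titled ETV6-RUNX1, against 6.77 and 2.55 in those titled control. The low readings lie within 0.5 of the lowest value of the table and the gene passed the filter only through the libraries described as ETV6-RUNX1, so no size is given for it. Myc differed by -2.55 (SE 0.33, adjusted p = 0.13) by description and 0.56 (SE 1.34) by title. The survival genes Bcl2l1 and Mcl1 differed by 0.98 (SE 0.56) and -0.26 (SE 0.16) by description, and by 0.36 (SE 0.75) and -0.06 (SE 0.23) by title. Ccnd2, a D cyclin gene, differed by -0.71 (SE 0.37) and Id1 by -0.92 (SE 1.13) by description, and by 0.41 (SE 0.51) and 0.13 (SE 1.24) by title. Ccnd3, a related D cyclin gene named after its values were seen, went the other way from Ccnd2, at 1.08 (SE 0.15, adjusted p = 0.13) by description and -0.20 (SE 0.59) by title. Osm, which encodes the cytokine oncostatin M, was the 1 listed target with an unadjusted p under 0.05 by title, at -1.08 (SE 0.28), and differed by -0.03 (SE 0.60) by description.

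The partners and substrates of the members were likewise without a call. Of the 5 SOCS box ligase genes, all tested, 1 was higher and 4 lower by description with a median of -0.25, and 4 were higher and 1 lower by title with a median of 0.07. The cullin gene Cul5 differed by -0.91 (SE 0.51) by description and 0.37 (SE 0.69) by title, the RING subunit gene Rnf7 by -0.09 (SE 0.21) and 0.05 (SE 0.24), and Socs7, the remaining SOCS family gene, by 0.86 (SE 0.34) and 0.26 (SE 0.57). Of 10 tested PIM substrate genes, 5 were higher and 5 lower by description with a median of 0.05, and by title 6 were higher and 4 lower with a median of 0.02. Among them the pro-death gene Bad differed by -0.20 (SE 0.21), the cell cycle inhibitor gene Cdkn1b by 0.57 (SE 0.37), the phosphatase gene Cdc25a by -0.44 (SE 0.30) and the translation repressor gene Eif4ebp1 by -0.46 (SE 0.33) by description; by title all 4 lay between -0.15 and 0.32. Of 13 other brakes of the pathway, such as tyrosine phosphatases and PIAS proteins, all were tested, 7 were higher and 6 lower by description with a median of 0.18, and 5 were higher and 8 lower by title with a median of -0.05. At an unadjusted p under 0.05 by description there were 1 of the 5 ligase genes, 3 of the 10 substrate genes and 4 of the 13 brakes, against the same 23.3%.

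**Figure D4:**
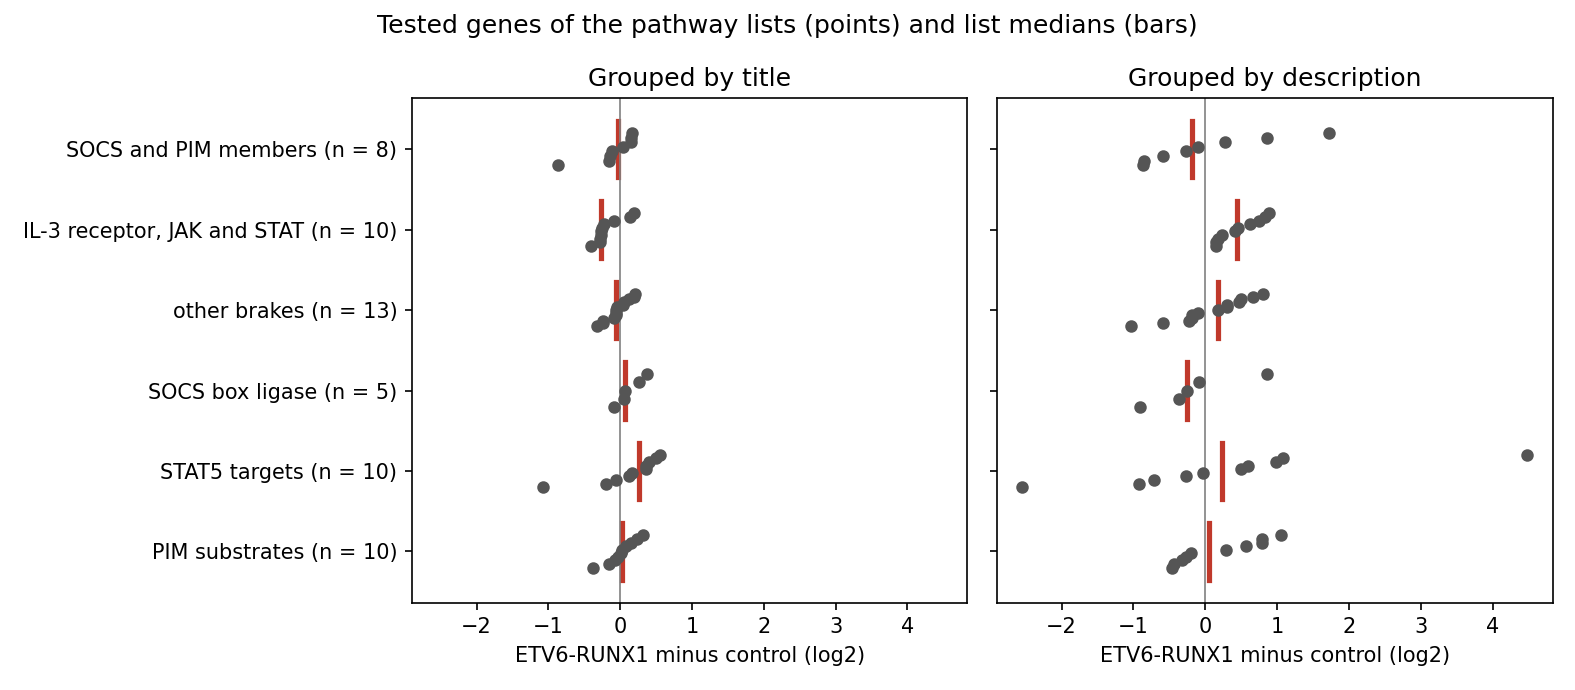
ETV6-RUNX1 minus control difference (log2, horizontal axis) of each tested gene (points) in the SOCS and PIM group and 5 pathway lists, with list medians as red bars, grouped by title on the left and by description on the right. Each gene is shown by its brightest probe set, and n is the number of genes. The receptor, JAK and STAT genes have a median of 0.44 by description and -0.26 by title, and the SOCS and PIM genes -0.19 and -0.03.

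The genes whose pattern over the 4 libraries lay closest to a member's were found by the Euclidean distance between values centred on their mean, for the 2 member probe sets with the widest range, 1 per gene. For the brighter Pim1 probe set these were Mvd, a cholesterol synthesis enzyme gene, at a distance of 0.39, the myeloid protease gene Prtn3 at 0.63 and the p53-induced nuclease gene Aen at 0.64. For the dim Socs2 probe set they were Gimap4, a lymphoid GTPase gene, at 0.0698, Kctd7 at 0.14 and Trp53inp2 at 0.16. That probe set passed the filter only through the libraries described as ETV6-RUNX1, so the filter favoured its pattern. Genes picked for likeness to it share that pattern by choice. Gimap4 read 7.49 and 9.31 in the libraries titled ETV6-RUNX1, against 9.60 and 7.94 in those titled control. With 4 libraries and 17720 probe sets many patterns lie close to each other, so this likeness is a description.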

How the data were processed

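Total RNA of BA/F3 cells was hybridised to a mouse 3' expression array, 4 libraries in all. The submitters' processing notes name GCRMA 2.28.0, which subtracts background modelled on probe sequence, normalizes arrays together and summarises probe sets, so levels near its floor are compressed. The deposited values run from 2.23 to 16.3, and were taken as log2 from this range. Scan dates and filters were not among the labels, and arrays carry no read depth, so the number of libraries limits the precision.

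Of 45101 probe sets, 64 array controls were left out and the 17720 with a mean of at least 4 were tested. Names came from the platform annotation, where 34958 had 1 symbol, 932 several and 9211 none. Linear models with moderated, trended variances (limma 3.58.1, run under R 4.3.3) gave the differences and two-sided tests, and p-values were adjusted by Benjamini-Hochberg across every tested probe set, with a threshold of 0.05, once by title (the main grouping) and once by description. The fit was run on simulated data with known differences. Their noise was independent, without the shared structure by description and replicate number of the real libraries. That run is thus a check of the code and not of the fit to these data. A listed gene with several probe sets was represented by the brightest; 2 list entries were older symbols of other entries.

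Every tested member probe set, a preset choice of list genes and any list gene past the threshold were named. Some untested member probe sets were covered only by counts and ranges. Other genes with values were chosen after their values were seen. The members and lists were chosen with earlier results of these data known. Alternatives were other filters, quantile normalization, no variance trend, the replicate block, leaving out each library and a mean of at least 4 in both described groups.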

Additional observations from a re-analysis of the deposited data

How the results depend on the processing

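No member passed the adjusted threshold under any setting tried in either grouping. By title 0 probe sets passed under every setting, the replicate block (0) included. By description 2 passed, against 14 after quantile normalization, 0 without the filter, 0 with the replicate block, 0 when both described groups had to average at least 4 (chosen after seeing the data), and 0 to 0 with any 1 library left out; the lowest adjusted p of a member was 0.0593 with the replicate block. The causes of these shifts were not tested. Same-numbered libraries had deviations from their group means that correlated at -0.20 by title and 0.59 by description across probe sets, and the labels give no pairing. A crossed pairing, chosen after seeing the data, gave 0 calls by title. Where leaving out 1 library leaves an arm with 1, that library is assumed to vary like the others.

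Leaving out each library in turn, title differences ranged from -0.78 to 1.11 for Cish, from -0.52 to 0.13 and from -1.26 to 0.52 for the second and the dim Socs2 probe sets, from -0.75 to 1.06 and from -0.65 to 1.24 for the Socs3 probe sets, from -0.39 to 0.17 for Socs4, from -0.50 to 0.81 and from -0.65 to 0.42 for Socs5, from -0.50 to 0.59 and from -0.18 to 0.64 for Socs6, from -2.46 to 0.74 and from -1.21 to 1.22 for Pim1, and from -0.38 to 0.0855 for Pim2. Description differences changed sign for Socs4 (-0.39 to 0.17), the dimmer Socs6 probe set (-0.71 to 0.000571) and the brighter Pim1 probe set (-2.45 to 0.75); the others kept their sign, among them Cish (0.27 to 1.46), Pim2 (-0.44 to -0.0894) and the brighter Socs6 probe set (-0.86 to -0.30).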
